A study of Mus musculus with 19 samples.

Results

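Troponin isoforms of slow, fast and cardiac muscle were read in the quadriceps of mice that model spinal and bulbar muscular atrophy (SBMA) and of wild-type mice. The members were the 8 troponin genes Tnni1, Tnnc1 and Tnnt1 (slow), Tnni2, Tnnc2 and Tnnt3 (fast), and Tnnt2 and Tnni3 (cardiac). They were found by gene name among the probes of a mouse expression array, on which 24741 genes were tested, and all 8 were tested. Each had 1 probe, except Tnnt1 and Tnnt3 with 2 each, which gave 10 probes. The AR113Q mice carried a knock-in androgen receptor allele with an expanded glutamine tract, which is present in every tissue and not in muscle alone. The control (CTR) mice were wild type, and both genotypes were C57Bl6J males killed at 180 days. They ate a normal chow diet (NCD) or, starting at 40 days, a high-fat diet (HFD). The NCD groups held 5 arrays each, CTR-NCD and AR113Q-NCD, and the HFD groups 4 (CTR-HFD) and 5 (AR113Q-HFD), with 1 sample on each. No source used here says whether a sample was 1 mouse, so the p-values measure the spread between these samples.

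Troponin is the calcium switch of the sarcomere. Troponin C binds calcium, troponin I holds the thin filament in its blocked state and troponin T ties both to tropomyosin. Slow (type I) and fast (type II) fibers build the complex from different genes, and adult heart shares troponin C with slow fibers but has its own troponin I and T. The mouse quadriceps is mostly fast fibers, with slow fibers in its deep part, so the slow isoforms stand for a minor share of the muscle. How much of the deep part each sample held is not given in the sources used here, and its part in the slow signals was not tested.

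Signals are given as log2 intensity minus the array's own 75th percentile, which is therefore 0. All 10 probes were well above background on 19 of 19 arrays and none was saturated. The share of all probes well above background ran from 67.1% to 80.1% over the 19 arrays. The skeletal muscle list (Ckm, Acta1, Mylpf, Des, Mb and Pygm) was well above background on every array for 6 of 6 genes. Because the samples are bulk muscle, fewer fibers of a type and less RNA per fiber cannot be told apart. Levels were not compared between probes, which differ in brightness per molecule.

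Of the 8 troponin genes, 6 lie in neighbouring pairs of a troponin I and a troponin T gene. By probe position in mm9, the build of the files, Tnni1 (NM_021467, chr1:137705328-137706203) lay 41.8 kb from Tnnt2 (NM_011619, chr1:137747976-137748288). The brighter Tnnt1 probe (NM_001277903, chr7:4456265-4456324) lay 15.7 kb from Tnni3 (NM_009406, chr7:4472043-4472102). Tnni2 (NM_009405, chr7:149630251-149630310) lay 68.2 kb from the brighter Tnnt3 probe (NM_011620, chr7:149698500-149700262). Tnnc1 (NM_009393, chr14:32023360-32023776) and Tnnc2 (NM_009394, chr2:164602661-164602720) had no member beside them. The probes of Tnni1, Tnnc1, Tnnt2 and the brighter Tnnt3 probe span more bases in the genome than their 60 bases, so each crosses an intron and matches spliced RNA.

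The upstream sequences of the 3 slow genes and of Tnnt2 are shown because these 4 genes moved together from array to array, as described further on. They are the 250 bases before the first transcription start that RefSeq lists for each gene, in build GRCm38.p6. Capitals mark E-boxes (CANNTG, the site of myogenic bHLH factors such as MyoD), the MCAT element (CATTCC, bound by TEAD factors) and TATA boxes (TATAAA or TATATA), searched on both strands.
Tnni1, chr1:135799171-135799420, plus strand: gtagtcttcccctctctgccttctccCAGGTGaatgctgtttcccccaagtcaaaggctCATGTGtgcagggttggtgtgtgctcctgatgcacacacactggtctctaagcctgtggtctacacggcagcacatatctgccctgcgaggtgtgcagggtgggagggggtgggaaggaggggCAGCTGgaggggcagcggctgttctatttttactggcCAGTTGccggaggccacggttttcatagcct
Tnnc1, chr14:31208062-31208311, plus strand: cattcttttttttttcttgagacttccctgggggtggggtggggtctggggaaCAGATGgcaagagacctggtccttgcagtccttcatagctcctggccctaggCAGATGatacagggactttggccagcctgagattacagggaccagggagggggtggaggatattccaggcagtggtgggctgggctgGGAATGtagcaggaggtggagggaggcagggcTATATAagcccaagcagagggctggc
Tnnt1, chr7:4515976-4516225, minus strand: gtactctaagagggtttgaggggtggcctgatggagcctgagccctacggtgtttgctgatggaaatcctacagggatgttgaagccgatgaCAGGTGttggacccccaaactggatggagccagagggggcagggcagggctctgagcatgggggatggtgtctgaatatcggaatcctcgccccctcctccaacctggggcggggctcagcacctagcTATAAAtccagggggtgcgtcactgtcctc
Tnnt2, chr1:135836084-135836333, plus strand: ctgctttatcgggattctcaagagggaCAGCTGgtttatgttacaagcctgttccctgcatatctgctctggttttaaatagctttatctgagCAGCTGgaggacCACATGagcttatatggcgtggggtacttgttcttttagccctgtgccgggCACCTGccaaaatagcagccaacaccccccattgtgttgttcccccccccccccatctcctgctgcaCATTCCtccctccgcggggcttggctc
E-boxes are common, and 66.2% of 32841 upstream windows of this length held at least 1. Tnni1 and Tnnt2 each had 4 in their window, Tnnc1 had 2 and Tnnt1 had 1. The E-box letters CAGCTG stood 68 bases before the Tnni1 start, and at 223 and 157 bases before the Tnnt2 start. An MCAT element, held by 12.6% of all windows, stood 27 bases before the Tnnt2 start and, on the other strand, 58 bases before the Tnnc1 start. A TATA box, held by 15.6% of all windows, stood 30 bases before the Tnnt1 start and 26 bases before the Tnnc1 start. Neither the MEF2 motif (2.92% of windows) nor the CArG box (1.47%) was matched in any of these 4 windows. No matches shown in capitals overlapped. These are matches of letters and not measured binding sites.

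The slow isoforms differed between arrays far more than any other troponin. Tnni1, the slow inhibitory subunit, had a log2 signal of 0.43, 2.73, 1.64, −1.71 and −0.26 on the CTR-NCD arrays. On the AR113Q-NCD arrays it was 2.86, 2.99, 3.91, 2.46 and 2.82. All 5 AR113Q-NCD arrays were thus high and close together, 1 of the control arrays (replicate 2) reached into their range, and the other controls lay below. On the CTR-HFD arrays the Tnni1 signal was −0.37, −2.06, 2.77 and −3.07. On the AR113Q-HFD arrays it was 1.74, −1.69, −1.88, 1.75 and 2.32. Under the HFD both genotypes therefore held arrays at both ends, and every AR113Q-HFD array was below every AR113Q-NCD array. From the lowest to the highest of the 19 arrays Tnni1 ranged 126-fold.

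Tnnc1, the calcium sensor of slow fibers and of the heart, repeated this order. Its log2 signal was 0.07, 2.28, 1.14, −1.47 and −0.50 on CTR-NCD arrays and 2.26, 2.49, 3.58, 2.17 and 2.28 on AR113Q-NCD arrays. On the HFD it was −0.79, −2.13, 2.28 and −2.98 in CTR and 1.29, −2.19, −2.22, 1.11 and 1.83 in AR113Q arrays. The same arrays were high and low as for Tnni1, and the 19 arrays spanned 94.6-fold.

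Tnnt1, the tropomyosin-binding subunit of slow fibers, was read by a brighter and a dimmer probe. The brighter gave 3.71, 6.03, 4.86, 1.39 and 3.28 on CTR-NCD arrays and 5.99, 6.09, 6.92, 5.88 and 6.02 on AR113Q-NCD arrays. On the HFD it gave 2.85, 0.52, 6.23 and −0.68 in CTR and 5.10, 1.46, 1.13, 4.90 and 5.72 in AR113Q arrays. It ranged 194-fold over the arrays, and the dimmer probe ranged 240-fold (from −4.18 to 3.73). Within groups, the SD of Tnni1 was 1.71 for CTR-NCD and 0.54 for AR113Q-NCD arrays, and under the HFD 2.55 for CTR and 2.05 for AR113Q. The SD of the brighter Tnnt1 probe was, in the same order, 1.75, 0.42, 3.04 and 2.19, and this difference in spread was not tested.

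**Figure D1:**
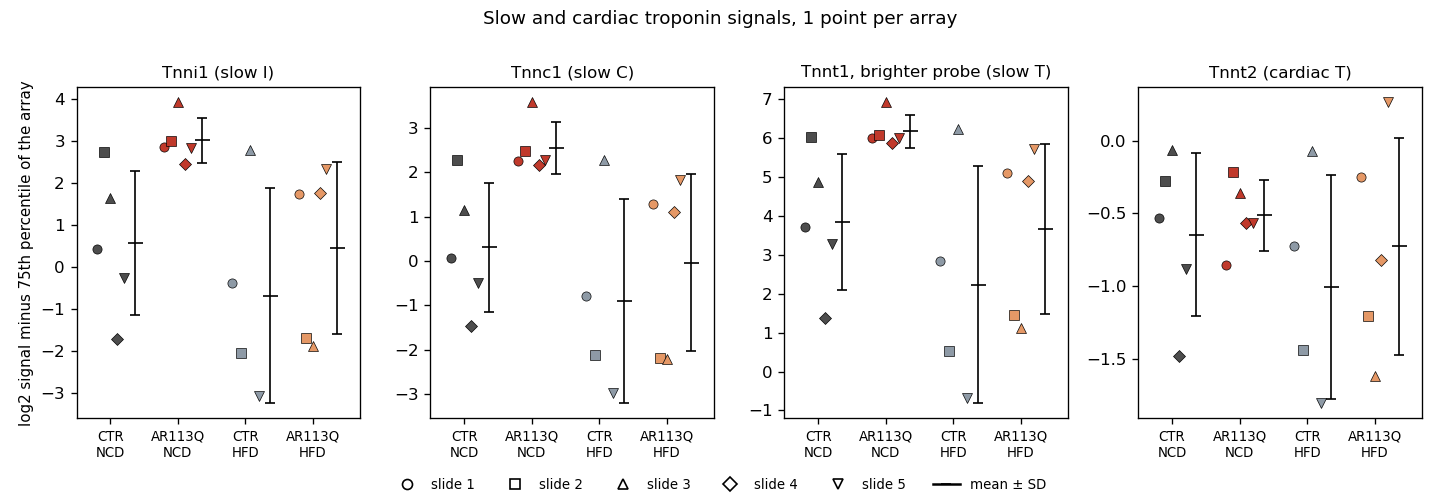
Log2 signal relative to the 75th percentile of the array (vertical axis) for Tnni1, Tnnc1, the brighter Tnnt1 probe and Tnnt2 in the 4 groups, with 1 point per array, a symbol for each of the 5 slides and the mean ± SD beside the points. The AR113Q-NCD arrays of the slow genes sit together near the top (Tnni1 2.46 to 3.91), while the other groups spread widely (CTR-HFD −3.07 to 2.77).

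The genotype contrast of the slow genes was positive on both diets, and limma called none of them. On the NCD, the log2 fold change of AR113Q over CTR was 2.44 for Tnni1 (standard error 1.09, adjusted p = 0.148 in limma), 2.25 for Tnnc1 (1.0, adjusted p = 0.146) and 2.32 for the brighter Tnnt1 probe (1.20, adjusted p = 0.22). For the dimmer Tnnt1 probe it was 2.57 (1.22, adjusted p = 0.18). These values are 4.76- to 5.92-fold, and the 95% interval for Tnni1 ran from 0.14 to 4.74. At an adjusted p under 0.05, 0 of 3 slow genes were higher, where 8.29% of 32026 probes were. At an unadjusted p under 0.05 Tnni1 and Tnnc1 were counted, as were 28.5% of all probes. For no slow probe were all AR113Q-NCD arrays above all CTR-NCD arrays, as 7.31% of probes were.

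On the HFD, the log2 fold changes of AR113Q over CTR were 1.13 for Tnni1 (95% interval −1.31 to 3.57), 0.87 for Tnnc1 (−1.38 to 3.11) and 1.43 for the brighter Tnnt1 probe (−1.26 to 4.12). None was called (adjusted p from 0.51 to 0.654 in limma over the 4 slow probes), where 8.0% of probes were called higher and 7.41% had every AR113Q-HFD array above every CTR-HFD array. Over both diets the log2 fold change was 1.79 for Tnni1, 1.56 for Tnnc1, 1.88 for the brighter and 2.02 for the dimmer Tnnt1 probe, with adjusted p from 0.103 to 0.126 in limma, against 13.3% of probes called higher. This last result turned on 1 array. Without CTR-HFD replicate 3, the CTR-HFD array with the highest slow signals, all 3 slow genes passed over both diets. The fold change of Tnni1 was then 2.36 on the log2 scale (adjusted p = 0.0182 in limma) and that of the brighter Tnnt1 probe 2.54 (adjusted p = 0.0177). On the HFD alone the values depended on single control arrays as well, and none was called. The log2 fold change ran from 0.34 without CTR-HFD replicate 4 to 2.28 without CTR-HFD replicate 3 for Tnni1, from 0.18 to 1.93 for Tnnc1 and from 0.46 to 2.76 for the brighter Tnnt1 probe.

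Diet was set against the NCD within each genotype. In AR113Q quadriceps the HFD arrays were lower in Tnni1 by a log2 value of −2.56 (standard error 1.09, 95% interval −4.86 to −0.26, adjusted p = 0.696 in limma). The values were −2.59 for Tnnc1, −2.52 for the brighter and −2.66 for the dimmer Tnnt1 probe, and none was called. In this contrast 0.025% of all probes were called in either direction, 8 in number. All 4 slow probes had every AR113Q-HFD array below every AR113Q-NCD array, as did 1.12% of probes. In CTR quadriceps the diet difference was −1.25 for Tnni1 (95% interval −3.69 to 1.19), −1.21 for Tnnc1 and −1.62 for the brighter Tnnt1 probe. It ran from −2.4 without CTR-HFD replicate 3 to −0.45 without CTR-HFD replicate 4 for Tnni1, from −2.27 to −0.52 for Tnnc1 and from −2.96 to −0.65 for the brighter Tnnt1 probe. Here 0.0% of probes were called, with 2775 at an unadjusted p under 0.05. AR113Q-HFD and CTR-NCD arrays, which share neither genotype nor diet, differed in Tnni1 by −0.12 (95% interval −2.42 to 2.18). The genotype by diet interaction called 0 of 8 members and 0.0% of probes (1489 at an unadjusted p under 0.05 in limma). For Tnni1 it was −1.31 with a 95% interval from −4.67 to 2.05.

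Setting the slow against the fast isoform of the same subunit within each array removes a shift that both probes share. The unscaled fast signals hardly varied (Tnni2 1.18-fold over the 19 arrays), so the difference was close to the unscaled slow signal. On the NCD it was 2.73 for troponin I, and Tnni1 without scaling differed by 2.71. A difference in array brightness that the fast probes did not follow stays in it. The slow minus fast difference was tested with 2-sided exact permutations of the group labels in 15 tests (3 subunits and 5 contrasts), with the p-values adjusted over the 15. Values are log2 differences relative to the CTR-NCD mean. Tnni1 minus Tnni2 was −0.25, 2.19, 1.13, −2.15 and −0.91 on CTR-NCD arrays, and 2.53, 2.71, 3.73, 2.01 and 2.66 on AR113Q-NCD arrays. Tnnc1 minus Tnnc2 was −0.40, 2.03, 0.95, −1.73 and −0.86 on CTR-NCD arrays, and 2.06, 2.43, 3.7, 1.89 and 2.42 on AR113Q-NCD arrays. Tnnt1 minus Tnnt3 was −0.15, 2.11, 0.94, −2.19 and −0.71 on CTR-NCD arrays, and 2.39, 2.55, 3.42, 2.16 and 2.57 on AR113Q-NCD arrays. The groups did not overlap for troponin T, and for troponins I and C only CTR-NCD replicate 2 reached the AR113Q-NCD range.

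On the NCD the slow-to-fast balance was higher in AR113Q than in CTR quadriceps for all 3 subunits. The difference was 2.73 log2 units for troponin I (6.62-fold, exact p = 0.0159, adjusted p = 0.0397, n = 5 and 5). For troponin C it was 2.5 (5.65-fold, exact p = 0.0159, adjusted p = 0.0397), and for troponin T 2.62 (6.14-fold, exact p = 0.00794, the smallest that 252 labellings allow, adjusted p = 0.0397). Beside this, 28.5% of single probes had an unadjusted p under 0.05 in limma on the NCD. Without scaling, limma called 23.3% of probes higher on the NCD, and the median log2 fold change of all probes was 0.22. The AR113Q-NCD array was above the CTR-NCD array on 5 of 5 slides for each subunit, by 0.52 to 4.16 for troponin I. Pairing the arrays by slide left a difference of the same size, with an exact p of 0.0625 that is the smallest 5 pairs can give. The 3 subunits are not independent tests, since their slow isoforms varied together across arrays.

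In AR113Q mice the HFD arrays had a lower balance than the NCD arrays. On AR113Q-HFD arrays the difference was 1.64, −2.01, −1.98, 1.54 and 1.92 for troponin I, with every array below every AR113Q-NCD array. It fell by 2.51 for troponin I (exact p = 0.00794, adjusted p = 0.0397) and by 2.51 for troponin C (exact p = 0.00794, adjusted p = 0.0397). For troponin T it fell by 2.37 (exact p = 0.0159, adjusted p = 0.0397), and there the groups overlapped narrowly (2.19 against 2.16). Among single probes, 1.12% had every AR113Q-HFD array below every AR113Q-NCD array, and 6.73% had an unadjusted p under 0.05 in limma. The call for troponin T passed the threshold at an exact p of 0.05 only with all AR113Q-NCD arrays. Without each of them in turn the exact p was 0.0556 to 0.0794 and the difference −2.49 to −2.17, and the call for troponin C was lost without AR113Q-NCD replicate 3 (−2.21, exact p = 0.0556). The AR113Q-HFD array was below the AR113Q-NCD array on 5 of 5 slides for each subunit, and paired by slide the exact p was 0.0625, the smallest that 5 pairs can give.

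The other contrasts between pairs of groups did not pass, and their arrays overlapped. Between AR113Q-HFD and CTR-HFD it differed by 1.55 for troponin I (exact p = 0.3175), by 1.25 for troponin C (exact p = 0.397) and by 1.88 for troponin T (exact p = 0.286). Between CTR-HFD and CTR-NCD the differences were −1.32, −1.26 and −1.64 (exact p from 0.3095 to 0.3492). On slides that held both, the AR113Q-HFD array was above the CTR-HFD array on 3 of 4 for each subunit. For troponin I the slides ranged from −3.95 to 5.59. Over both diets the genotype difference was 2.14 for troponin I (exact p = 0.0238, adjusted p = 0.0487), 1.87 for troponin C (exact p = 0.0318, adjusted p = 0.053) and 2.25 for troponin T (exact p = 0.026, adjusted p = 0.0487). Only troponins I and T passed after adjustment, and no subunit passed within slides, where the exact p was 0.0859, 0.0977 and 0.0898 with differences of 1.97, 1.73 and 2.11 on 9 pairs of arrays. Of all probes, 38.5% had an unadjusted p under 0.05 in limma over both diets.

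**Figure D2:**
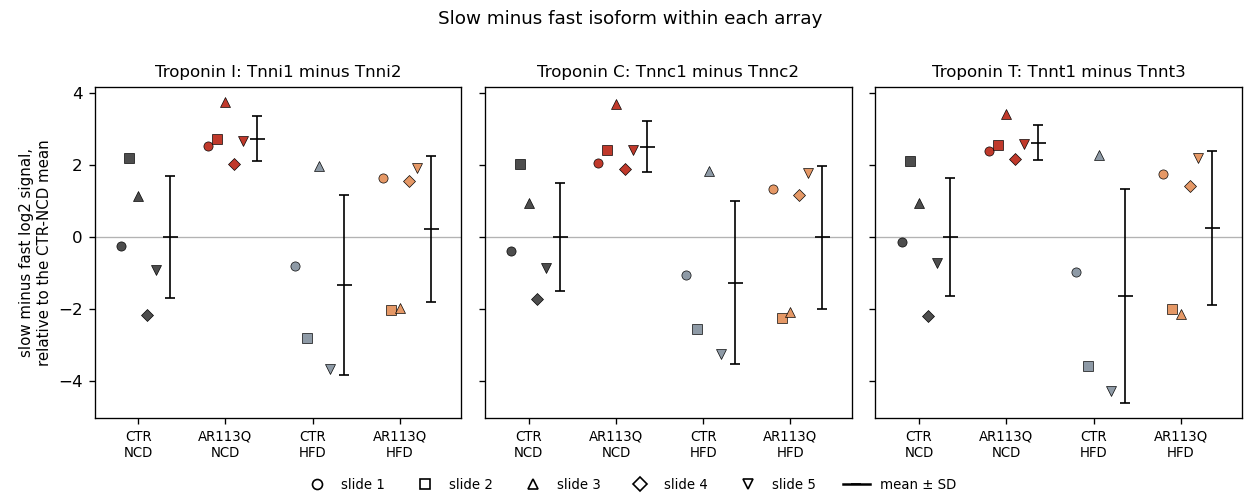
Slow minus fast log2 signal within each array, relative to the CTR-NCD mean (vertical axis), for troponins I, C and T in the 4 groups, with 1 point per array, a symbol per slide and the mean ± SD. The AR113Q-NCD arrays sit between 1.89 and 3.73 over the 3 subunits, and the AR113Q-HFD arrays split into 3 above and 2 below the CTR-NCD mean.

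The 3 slow isoforms varied as a unit within the groups. Each array's deviation from its group mean was compared over the 19 arrays, in 12 pairs of genes with 100000 permutations within groups. Tnni1 and Tnnc1 had r = 0.996 and rho = 0.986, and 1e-05 was the smallest permutation p possible (adjusted p = 4e-05). Tnni1 and Tnnt1 had r = 0.995 and rho = 0.9965 (permutation p = 1e-05, adjusted p = 4e-05). Without the 2 arrays farthest from the median, r was 0.993 and 0.992. With slide removed as well as group, r was 0.9965 and 0.995, and a slide held too few arrays to compute r within it. The amplitudes were close, with Tnnc1 deviating 0.919 times and Tnnt1 1.1 times as far as Tnni1.

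Tnnt2, the troponin T of heart and of developing skeletal muscle, followed the slow genes at a smaller amplitude. Its log2 signal was −0.53, −0.27, −0.06, −1.48 and −0.88 on CTR-NCD arrays and −0.86, −0.22, −0.36, −0.57 and −0.57 on AR113Q-NCD arrays. On the HFD it was −0.72, −1.44, −0.07 and −1.81 in CTR and −0.25, −1.2, −1.62, −0.82 and 0.26 in AR113Q arrays. All 4 groups overlapped, and the whole range was 4.2-fold. Its deviations went with those of Tnni1 at r = 0.91 and rho = 0.8895 (permutation p = 6e-05 and 0.00021, adjusted p = 0.00012 and 0.00036). With Tnnt1 r was 0.918 and rho 0.909 (permutation p = 4e-05 and 7e-05, adjusted p = 9.6e-05 and 0.00021). Without the 2 farthest arrays r was 0.904 with Tnni1 and 0.892 with Tnnt1. Tnnt2 deviated 0.334 times as far as Tnni1. The 3 pairs with Tnnt2 were added after its values had been seen.

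The Tnnt3 and Tnnt2 probes were compared because related isoforms can share sequence. The Tnnt1 probes, whose signal Tnnt2 followed across arrays, were not aligned with the Tnnt2 probe. The lines below give both Tnnt3 probes, with the stretch they have in common in capitals, and the Tnnt2 probe, with capitals where it equals the brighter Tnnt3 probe in the best alignment without gaps.
Tnnt3 brighter probe: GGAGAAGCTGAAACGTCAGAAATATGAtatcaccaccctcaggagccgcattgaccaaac
Tnnt3 dimmer probe: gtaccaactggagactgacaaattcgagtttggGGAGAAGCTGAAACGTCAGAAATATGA
Tnnt2: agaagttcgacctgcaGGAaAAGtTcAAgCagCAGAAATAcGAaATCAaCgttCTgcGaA
The Tnnt3 probes share 27 bases, so they read overlapping parts of the same messenger RNA. Tnnt2 and the brighter Tnnt3 probe were identical at 29 of 44 aligned bases (65.9%), with a longest identical run of 8. Whether the Tnnt2 probe also takes up RNA of other troponin T genes was not tested.

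**Figure D3:**
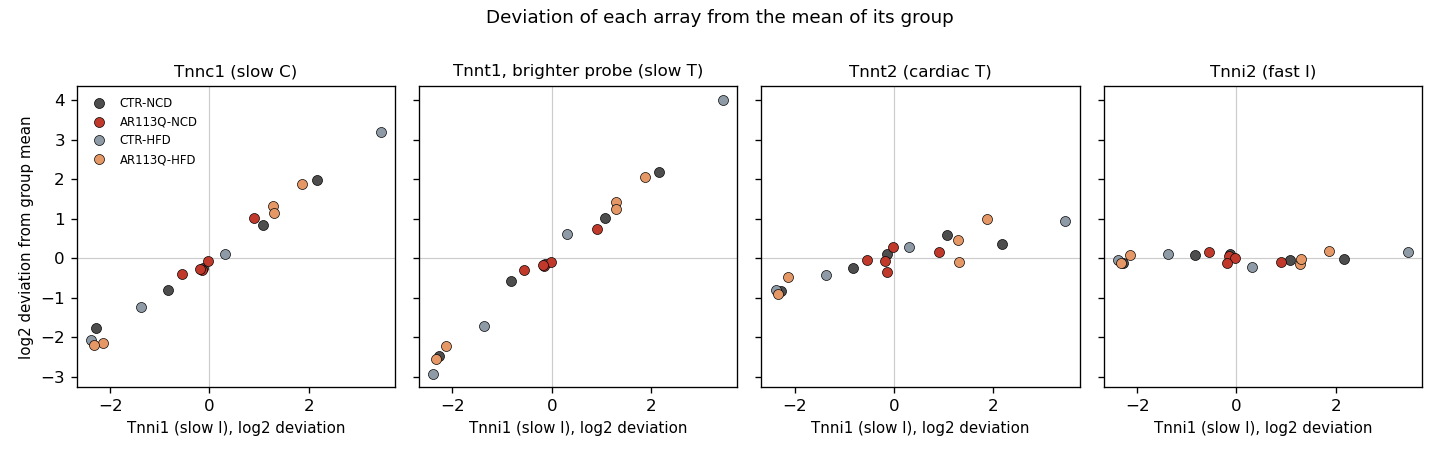
Deviation of each array's log2 signal from the mean of its group, with Tnni1 on the horizontal axis and Tnnc1, the brighter Tnnt1 probe, Tnnt2 and Tnni2 on the vertical axes, 1 point per array in the colour of its group. Tnnc1 (r = 0.996) and Tnnt1 (r = 0.995) follow a line near the diagonal, Tnnt2 (r = 0.91) a shallower one, and Tnni2 (r = 0.168) stays flat.

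The fast isoforms were nearly constant. Tnni2, the fast inhibitory subunit, had a log2 signal of 9.65, 9.51, 9.48, 9.41 and 9.62 on CTR-NCD arrays and 9.30, 9.25, 9.14, 9.41 and 9.13 on AR113Q-NCD arrays. On the HFD it was 9.39, 9.71, 9.77 and 9.57 in CTR and 9.06, 9.29, 9.07, 9.17 and 9.37 in AR113Q arrays. On this scale AR113Q arrays were lower, with 1 AR113Q-NCD array (replicate 4) level with the lowest CTR-NCD array and no overlap on the HFD. Tnnc2, the calcium sensor of fast fibers, spanned 8.78 to 9.06 on CTR-NCD and 8.45 to 8.87 on AR113Q-NCD arrays. Under the HFD its range was 8.85 to 9.05 for CTR and 8.46 to 8.65 for AR113Q. Over the 19 arrays the fast probes ranged 1.52- to 1.77-fold, against 94.6- to 240-fold for the slow probes.

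On the NCD, 2 of 3 fast genes were called lower in AR113Q, where 9.28% of all probes were called lower. The log2 fold change was −0.29 for Tnni2 (standard error 0.09, adjusted p = 0.0293 in limma) and −0.36 for the dimmer Tnnt3 probe (0.08, adjusted p = 0.0044). Tnnc2 did not pass, with −0.25 (adjusted p = 0.0551). Only 1 member gene was called without CTR-NCD replicate 1 or 5 or AR113Q-NCD replicate 2, 3 or 5. The dimmer Tnnt3 probe alone had every AR113Q-NCD array below every CTR-NCD array, as did 8.29% of probes. On the HFD, 3 of 3 fast genes were called lower, where 9.93% of probes were. The values were −0.42 for Tnni2 (adjusted p = 0.00426 in limma), −0.38 for Tnnc2 (adjusted p = 0.00672) and −0.47 for the dimmer Tnnt3 probe (adjusted p = 0.000882). All 4 fast probes had every AR113Q-HFD array below every CTR-HFD array, as did 8.3% of probes. Over both diets 3 of 3 were called lower, at log2 fold changes from −0.41 to −0.31, against 16.0% of probes, and between AR113Q-HFD and CTR-NCD 3 of 3, against 11.1%.

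The lower fast signals depended on the scaling of the arrays. The 75th percentile itself was 9.52 to 9.75 in CTR-NCD and 9.51 to 9.86 in CTR-HFD arrays, but 9.65 to 10.05 in AR113Q-NCD and 9.86 to 10.18 in AR113Q-HFD arrays. Without scaling, Tnni2 lay between 19.06 and 19.30 on all 19 arrays, which is 70.0% to 82.8% of the scanner's saturation value, and it was the probe with the 2nd highest mean signal on the array. The unscaled log2 fold change over both diets was −0.04 for Tnni2, 0.00 for Tnnc2, −0.06 for the brighter and −0.10 for the dimmer Tnnt3 probe, and none passed (adjusted p from 0.143 to 0.975 in limma), while the median of all probes stood at 0.25. Relative to that median they were −0.35 to −0.25, as they are by construction with the 75th percentile subtracted. Another background correction, normexp, gave −0.26 to −0.17 over both diets for the 4 fast probes, and none passed (adjusted p from 0.3605 to 0.3634 in limma). There the median of all probes stood at −0.31, and relative to it the fast probes were 0.05 to 0.13. Centring each array on its median gave −0.29 for Tnni2 (adjusted p = 0.0473 in limma), −0.25 for Tnnc2 (0.037), −0.31 for the brighter (0.0336) and −0.35 for the dimmer Tnnt3 probe (0.00624), so all 3 fast genes were still called lower over both diets, and none on the NCD or the HFD alone. With quantile normalization the 4 values were 0.00 to 0.08, and in the authors' table −0.04 to 0.06, and 0 of 3 fast genes passed in either. Under quantile normalization Tnnc2 (0.08) and both Tnnt3 probes (0.02) thus had the opposite sign, as did Tnni2 (0.05) and Tnnc2 (0.06) in the authors' table. Quantile normalization gives a probe of so high a rank nearly the same value on every array by construction, so its value for Tnni2 says nothing of that gene. How far the response of so bright a spot is compressed was not tested. The slow genes kept their sign under each scaling, with Tnni1 at 1.46 to 2.10 over both diets. Without scaling all 3 slow genes passed over both diets (adjusted p from 0.0382 to 0.0483 in limma), as did 40.6% of all probes in the higher direction.

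**Figure D4:**
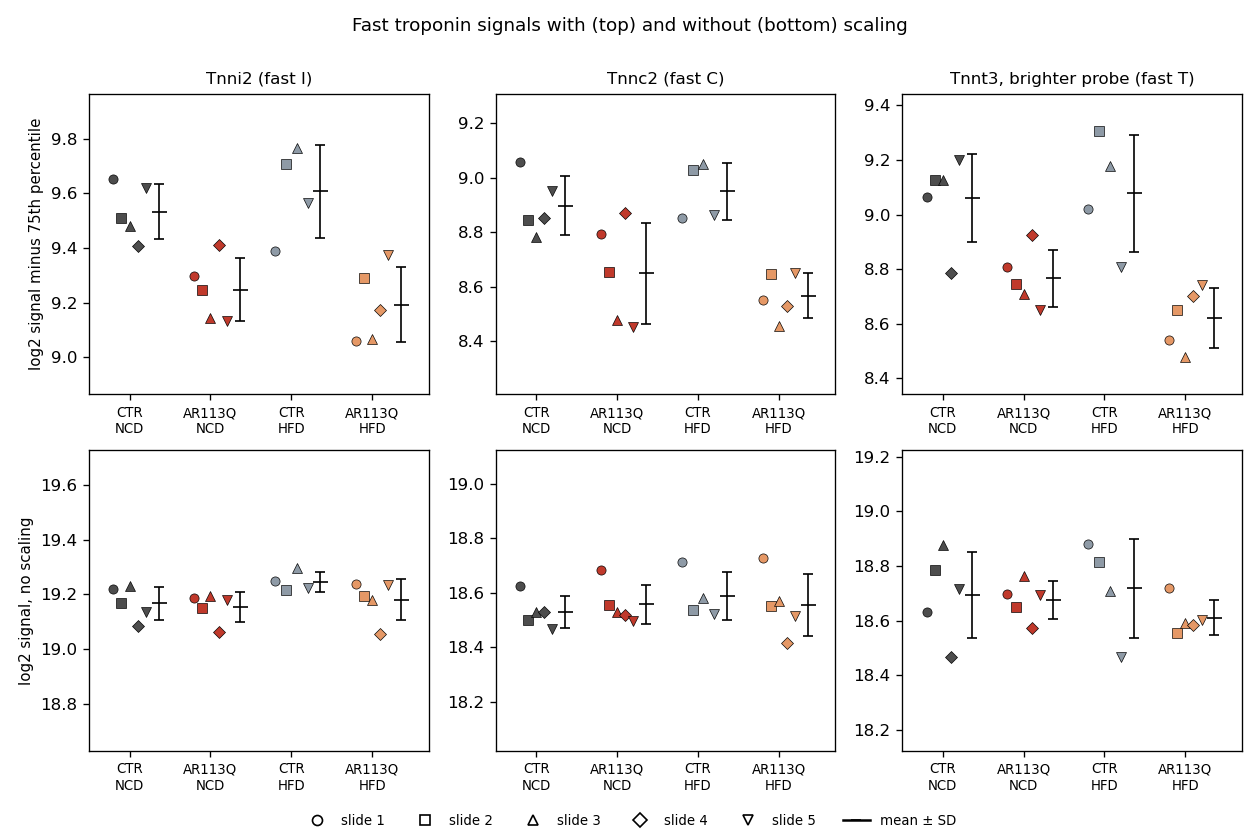
Log2 signals of Tnni2, Tnnc2 and the brighter Tnnt3 probe in the 4 groups, relative to the 75th percentile (top row) and without scaling (bottom row), with 1 point per array, a symbol per slide and the mean ± SD, each panel spanning the same height in log2 units. AR113Q arrays are lower in the top row (Tnni2 on the HFD 9.06 to 9.37 against 9.39 to 9.77), and the groups overlap in the bottom row.

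**Figure D5:**
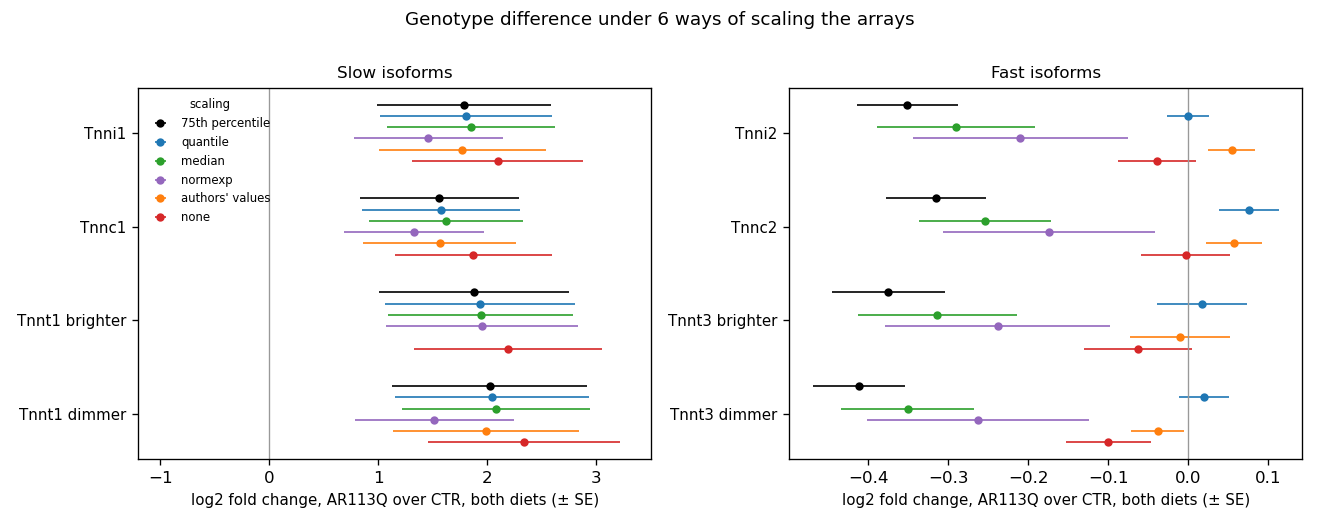
Log2 fold change of AR113Q over CTR across both diets (horizontal axis, ± standard error) for the slow (left) and fast (right) probes under 6 ways of scaling the arrays, which are shown in colours and fitted with limma. Slow probes stay positive throughout, while the fast probes move from between −0.41 and −0.31 with the 75th percentile to between 0.00 and 0.08 with quantile normalization (the horizontal scales of the panels differ).

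The scaled signals of the fast isoforms varied together within groups, but the scaling alone can produce this. It subtracts the same value from every probe of an array, and that value had an SD of 0.09 to 0.16 within groups. The unscaled Tnni2 signal had an SD of only 0.04 to 0.07. The scaled r therefore cannot show whether the fast genes varied together, and without scaling no fast pair passed after adjustment. Tnni2 and Tnnc2 had r = 0.837 and rho = 0.812 (permutation p = 4e-05 and 0.00011, adjusted p = 9.6e-05 and 0.000264). Tnni2 and Tnnt3 had r = 0.697 and rho = 0.774 (permutation p = 0.00398 and 0.00102, adjusted p = 0.00597 and 0.00153). For Tnnc2 and Tnnt3 r was 0.582 and rho 0.577 (permutation p = 0.00886 and 0.0157, adjusted p = 0.0118 and 0.0209). Without scaling Tnni2 and Tnnc2 had r = 0.53 and rho = 0.4825 (permutation p = 0.0449 and 0.0562, adjusted p = 0.0674 and 0.0749). Tnni2 and Tnnt3 then had r = 0.468 and rho = 0.456 (permutation p = 0.0336 and 0.0704, adjusted p = 0.0576 and 0.0845). Tnnc2 and Tnnt3 had r = 0.305 and rho = 0.253 (permutation p = 0.206 and 0.338, adjusted p = 0.225 and 0.369). With slide removed as well, the unscaled r of these pairs was 0.348, −0.0629 and −0.281. The slow and fast isoforms of a subunit showed no relation that passed, with r = 0.168 and rho = 0.132 for troponin I (permutation p = 0.581 and 0.65, adjusted p = 0.634 and 0.709). For troponin C r was 0.0313 and rho 0.0088 (permutation p = 0.886 and 0.973), and for troponin T r was 0.452 and rho 0.323 (permutation p = 0.138 and 0.247). Unscaled, r was 0.413 and rho 0.507 for troponin I (permutation p = 0.0997 and 0.0486, adjusted p = 0.12 and 0.0729). For troponin T they were 0.548 and 0.537 (permutation p = 0.0615 and 0.0446, adjusted p = 0.082 and 0.0729). For troponin C they were 0.0857 and 0.0368 (permutation p = 0.775 and 0.901), so none passed after adjustment.

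Tnni3, the inhibitory subunit of adult heart, was the dimmest member. It stayed between −5.98 and −4.15 on all arrays, and its genotype difference over both diets was 0.08 (95% interval −0.31 to 0.47). Its neighbour Tnnt1 covered a 194-fold range on the same arrays. Tnnt2 differed by 0.21 between genotypes over both diets (95% interval −0.36 to 0.77, adjusted p = 0.611 in limma). Neither cardiac gene was called in any of the 7 contrasts.

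The genes whose signal was most like the mean of the 3 slow troponins over the 19 arrays included 6 from the slow partner list. The 10 with the highest Pearson's r were taken, with the best probe of each gene, and the arrays share their scaling. Tpm3 (slow tropomyosin) had r = 0.997, Myh7 (slow myosin heavy chain) 0.991, Myl2 and Myl3 (slow and cardiac myosin light chains) 0.990 and 0.9675, Myh7b 0.953 and Atp2a2 (the calcium pump of slow and cardiac muscle) 0.945. Cdh22, Cyfip2, the locus LOC100862557 and a probe without a gene name made up the rest (r from 0.932 to 0.989). Myh7 ranged over 9.37 log2 units, wider than any slow troponin probe. Most like the fast mean were Slc25a4 (r = 0.984), Chchd10, LOC100048117, Gapdh and Gm5523. Gapdh, an enzyme of glycolysis, had r = 0.9775 and a genotype difference of −0.32 on the NCD, close to those of the fast troponins.

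Of 13 slow partner genes, 4 were called higher in AR113Q over both diets and none lower, where 13.3% of all probes were called higher and 16.0% lower. Their median log2 fold change was 0.76 against −0.06 for all probes. Casq2, the calsequestrin of slow and cardiac muscle, rose by 2.0 (adjusted p = 0.000138 in limma), and Myl6b by 0.34 (adjusted p = 0.000187). Atp2a2 rose by 1.23 (adjusted p = 0.0391), and Mybpc1, slow myosin-binding protein C, passed through 1 of its 2 probes (0.93, adjusted p = 0.024). Myh7 (2.22, adjusted p = 0.148) and Myl2 (2.04, adjusted p = 0.133) had changes of the size seen for the slow troponins and did not pass. The probes of Tpm3 disagreed, at −0.01 for the brightest and 1.59 and 1.86 for the others (adjusted p = 0.958, 0.0986 and 0.0824).

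Of 11 fast partner genes, 10 were called lower over both diets and none higher, against 16.0% and 13.3% of all probes, with a median of −0.54. Casq1, the calsequestrin of fast fibers, fell by 1.14 (adjusted p = 1.69e-07 in limma), Atp2a1, their calcium pump, by 0.83 (adjusted p = 9.04e-08), Myoz1 by 0.80 and Actn3, the actinin of fast fibers, by 0.80. Without scaling Casq1 still fell by 0.83 (adjusted p = 1.91e-05 in limma) and Actn3 by 0.49 (adjusted p = 0.00018). By the brightest probe of each gene, 9 fast partners were lower and 1 higher without scaling, and 7 lower and 1 higher with quantile normalization. Myh1 was the partner not called (0.31, adjusted p = 0.316).

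The thin filament list, the scaffold on which troponin sits, was split, with 5 of 13 genes higher and 5 lower over both diets (13.3% and 16.0% of all probes). Actc1, the actin of heart and of developing muscle, rose by 1.22 (adjusted p = 1.35e-05 in limma), and Klhl41 by 0.58 (adjusted p = 2.92e-06). Acta1, the adult skeletal actin, fell by 0.44 (adjusted p = 1.61e-05) and Tmod4, a cap of the thin filament, by 0.67 (adjusted p = 1.2e-05). By the brightest probe of each gene the split was 5 higher and 4 lower, against 6 and 1 with quantile normalization and 8 and 2 without scaling. Of 10 genes of embryonic or denervated muscle, 6 were higher and 1 lower, beside the same shares of all probes. The higher genes were Chrna1, Myog, Ncam1, Musk, Gadd45a and Runx1. Myh8 was the lower one (−0.31, adjusted p = 0.00118 in limma). Its probe was as bright as those of the fast troponins (group means 8.90 to 9.27), whose lower signals depended on the scaling. The value of Myh8 under other scalings is not given here. Myh3 (0.97), Myl4 (0.24) and Chrng (0.17) were not called. Chrna1, the acetylcholine receptor subunit, rose by 1.75 (adjusted p = 1.68e-08), Gadd45a by 1.14, Runx1 by 1.17 and Musk by 1.0 (adjusted p of at most 1.94e-05).

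Markers of other cell types were set beside the slow isoforms. The summed level of 10 cardiac genes spanned 0.06 to 1.55 for CTR-NCD and 1.42 to 1.72 for AR113Q-NCD. Under the HFD it spanned −0.19 to 1.49 for CTR and 0.46 to 1.25 for AR113Q. Deviations of this sum went with those of the slow mean at r = 0.773 and rho = 0.821 (permutation p = 0.00414 and 0.00165, adjusted p = 0.0373 and 0.0148 over 9 measures). The sum is mostly Myh6, a myosin heavy chain of the heart, whose group means were −0.49 to 1.15, against −1.39 or lower for each of the other cardiac genes. Myh6 deviated with the slow mean at r = 0.804 and the others at r from −0.388 to 0.183. Within the list limma called 0 of 10 genes, and over both diets only Myl7 had an unadjusted p under 0.05 by its brightest probe. Myl7, Mybpc3 and Ryr2 were not well above background on every array, and Myh6 had values of 1.07 on the NCD and 0.64 on the HFD (adjusted p = 0.235 and 0.54 in limma). The summed level of 7 adipocyte genes was 6.24 to 7.73, 6.50 to 7.24, 6.14 to 7.18 and 5.89 to 7.64 in the same groups, with r = −0.516 and rho = −0.467 (permutation p = 0.0614 and 0.0884, adjusted p = 0.0922 and 0.133). The summed level of 6 Schwann cell genes was 2.02 to 2.67 for CTR-NCD and 2.70 to 2.89 for AR113Q-NCD. These ranges did not overlap, but the gap was narrow. Of all single probes, 7.31% likewise separated the NCD groups with AR113Q higher, and none of the 6 genes was called on the NCD. Under the HFD the summed level was 2.31 to 2.83 for CTR and 2.42 to 2.87 for AR113Q. That of 5 macrophage genes was 3.91 to 4.39 over all groups. For Schwann cell genes r was 0.663 and rho 0.705 (permutation p = 0.0133 and 0.0043, adjusted p = 0.0589 and 0.0193), and for macrophage genes r was 0.566 and rho 0.653 (permutation p = 0.0196 and 0.00976, adjusted p = 0.0589 and 0.0293). For endothelial genes r was 0.584 and rho 0.486 (permutation p = 0.0356 and 0.0682, adjusted p = 0.0801 and 0.123). For fibroblast genes r was 0.363 and rho 0.421 (permutation p = 0.0556 and 0.0645, adjusted p = 0.0922 and 0.123), and for red blood cell genes r was 0.427 and rho 0.312 (permutation p = 0.247 and 0.278, adjusted p = 0.318 and 0.357). Over both diets 16.0% of all probes were called lower. Beside that share, 1 of 6 Schwann cell (Mbp), 1 of 5 macrophage (Itgam), 2 of 5 endothelial (Kdr and Vwf) and 1 of 5 red blood cell genes (Slc4a1) were called lower through at least 1 probe, and none of 7 adipocyte and 5 fibroblast genes. The 75th percentile had r = −0.0044 and rho = 0.0702 with the slow mean (permutation p = 0.988 and 0.804), and the share of probes well above background r = −0.0939 and rho = −0.1175 (permutation p = 0.754 and 0.678). Of the 6 skeletal muscle genes 4 were called lower over both diets (Ckm, Acta1, Mylpf and Pygm), beside the same 16.0% of all probes. These calls were made with the 75th percentile subtracted, the scaling on which the lower fast troponin signals depended. Other scalings of this list are not given here. The part of these other cell types in the slow signals was not tested.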

How the data were processed

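Quadriceps RNA of 19 samples was hybridized, 1 sample per array, to one-colour Agilent arrays. The authors analyzed the scanned images with Agilent Feature Extraction 10.7.3.1. Per the file headers the deposited spot intensities are background-subtracted and trend-corrected, with no scaling between arrays. The authors also deposited a table of log2 values per transcript, used as an alternative, whose normalization is not given in the sources used here. It lists 1 of the 2 Tnnt1 probes.

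Here intensities were taken to log2, control and outlier spots left out, spots of a probe averaged (39429 probes), and every array was shifted by its 75th percentile. Probes well above background on at least 4 arrays (32026) were fitted over the 4 groups with limma (version 3.58.1, under R 4.3.3), p-values were adjusted by Benjamini-Hochberg over all of them, and a call was made at an adjusted p under 0.05. A gene was called through at least 1 probe. Slow minus fast differences used the brightest unsaturated probe of each gene and exact permutation tests (scipy 1.17.1). Both methods were tested on simulated data. The precision is limited by the number of arrays. The 19 arrays lay on 5 slides, each with several groups.

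The members, the 12 gene lists and the tests were chosen with earlier results of these data known, so a pattern already seen there is not independent support. Named list genes are up to 4 per list by smallest p over both diets, plus those needed to describe a list. Genes of like pattern were the 10 with the highest r to the slow mean and the 5 for the fast mean. All 8 members had an upstream window in the RefSeq table except Tnni2 and Tnnt3. As alternatives, the arrays were median-centred or quantile-normalized, and further ones were normexp (offset 50), the authors' values, other filters, slide or replicate blocks, array weights, the fold thresholds 1.5 and 0.6, each array left out and, chosen after seeing the data, no scaling.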

Additional observations from a re-analysis of the deposited data

Results flagged for a closer look

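Arrays far from the rest of their group were looked for with Dixon's ratio in 52 groups of 4 or 5 values, where chance alone marks about 1 in 20. There were 4 such values. AR113Q-NCD replicate 3 was the highest of its group in Tnnc1 (3.58, the nearest array at 2.49), in the brighter Tnnt1 probe (6.92, the nearest at 6.09) and in the dimmer Tnnt1 probe (3.73, the nearest at 2.70). These 3 values come from 1 array and move together, so they are not separate signs. AR113Q-HFD replicate 3 was the highest of its group in Tnni3 (−4.15, the nearest array at −5.21), while it was the lowest of its group in Tnni1 and Tnnc1.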

How the results depend on the processing

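The number of member genes called depended on the scaling. Quantile normalization, normexp, the authors' values and the fold thresholds of the study each left 0 called on the NCD (from 2), on the HFD (from 3), between AR113Q-HFD and CTR-NCD (from 3) and over both diets (from 3). Median centring left 0, 0 and 1 in the first 3 of these. No scaling, chosen after seeing the data, left 0 in each of the first 3, and over both diets the 3 it called were the slow genes in place of the fast. With single arrays left out the count ran from 1 to 3 on the NCD (1 without CTR-NCD replicate 1 or 5, or AR113Q-NCD replicate 2, 3 or 5) and from 3 to 6 over both diets (6 without CTR-HFD replicate 3). Fast genes changed sign at small values. Tnni2 was 0.0157 with normexp on the NCD and 0.0662, 0.0422 and 0.0542 (NCD, HFD, both diets) with the authors' values. Tnnc2 was 0.112, 0.0395 and 0.0758 with quantile normalization, 0.0852, 0.0291 and 0.0571 with the authors' values, and on the NCD 0.0661 with normexp and 0.0268 without scaling. With quantile normalization the brighter Tnnt3 probe was 0.0664 on the NCD and 0.017 over both diets, and the dimmer Tnnt3 probe 0.0312, 0.0075 and 0.0194. The cause was not tested.

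The slow minus fast difference kept its sign, but over both diets its exact p rose above 0.05 under several alternatives. For troponin I it was 1.72 with the authors' values (exact p = 0.0554), 1.97 within slides and 1.92 with the replicate block. For troponin C it was 1.5 with quantile normalization, 1.51 with the authors' values, 1.73 within slides and 1.65 with the replicate block. For troponin T it was 1.92 with quantile normalization (exact p = 0.051), 2.11 within slides and 2.01 with the replicate block. With single arrays left out it was 1.75 to 2.68 for troponin I (lost without CTR-HFD replicate 2 or 4). It was 1.54 to 2.39 for troponin C (lost without CTR-NCD replicate 4, CTR-HFD replicate 2 or 4, or AR113Q-HFD replicate 1, 4 or 5) and 1.81 to 2.90 for troponin T (lost without CTR-HFD replicate 2 or 4, or AR113Q-HFD replicate 1 or 5). The diet difference in AR113Q mice was −2.96 to −1.95 for troponin C and −2.86 to −1.78 for troponin T. All 3 NCD genotype differences, and the diet difference of troponin I in AR113Q mice, kept an exact p under 0.05 with each array left out. The replicate number was also the slide for 18 of 19 arrays, so the replicate block and the slide block are nearly the same fit. Arrays of the same number deviated together in part (r from −0.205 to 0.537, median 0.236, in 27 pairs, 20 of them over 0.1, against a median of −0.086 for other pairs), and the replicate block moved no count of calls. The number of arrays, 4 or 5 a group, limits what differences can be seen in genes as variable as the slow isoforms.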
